A study of Mus musculus with 12 samples.

Results

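The comparison described here set bone marrow-derived macrophages (BMDMs) that had been with the agonist fenoterol for 4 h against BMDMs that had been with it for 1 h, to find which early changes had decayed, which went on and which appeared only later. Its members are the 8 fenoterol libraries of the 12 in the series, which come from 4 mice, each with 1 library at 1 h, 1 at 4 h and 1 untreated. BMDMs were grown for 1 week from marrow of male C57Bl/6J mice in medium conditioned by L929 cells, a source of macrophage growth factor. Fenoterol was added at 1 μM to cells that stayed in the same medium, and RNA was taken at once at the end of each time. All 3 groups share the strain, the genotype, the growth medium and the overnight plating. Untreated BMDMs are a single group with no time of its own, so the time with fenoterol and the 3 h more in culture cannot be told apart between 4 h and 1 h, and a change of cell number cannot be told apart from a change of RNA per cell.

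Fenoterol is an adrenergic agonist, and the receptor it acts on couples to the stimulatory G protein. Adenylyl cyclase then makes cAMP, cAMP frees the catalytic subunits of protein kinase A, and these phosphorylate the factor CREB, which binds the cAMP response element (CRE) in the promoters of many early genes. Many early genes encode transcription factors, phosphatases, phosphodiesterases and RNA-binding proteins that act back on the signal. In macrophages, cAMP is known to restrain the production of TNF and some chemokines.

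Between 4 h and 1 h, 5775 of the 12386 genes tested differed, which is 46.6% of them. The test was the quasi-likelihood test of edgeR with the mouse as a block, and a gene was called when its adjusted p was under 0.05. Of the called genes, 2853 were higher at 4 h (23% of the genes tested) and 2922 lower (23.6%). The larger changes were less even: by 2-fold or more, 293 genes were higher (2.37%) and 527 lower (4.25%), so that 35.7% of these genes were higher. Among genes with a mean count of at least 50, 145 were higher by as much, or 27.9% of such changes. Over all genes tested, 45.3% of the changes of this size were higher when counts were scaled to library totals alone. Without scaling beyond library size, 65.5% of the called genes were higher at 4 h against 49.4% with the scaling used. The scaling factors lay between 0.953 and 0.974 at 1 h and between 1.02 and 1.04 at 4 h, and the median log2 difference of all genes moved by 0.09 without them, so the direction of small differences depends on the scaling. The median absolute log2 difference of the genes tested was 0.22. All 4 mice moved the same way in 5438 of the called genes. In 4445 genes (35.9%) the 4 libraries of 1 time lay above the 4 of the other. The 8 fenoterol libraries held 18288911 to 24153284 counts each. Values given below as normalized counts are counts scaled to a common library size.

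The summed level of 8 macrophage markers, all of them tested, was 35991 to 41418 CPM (counts scaled to library size) at 1 h and 37028 to 41007 at 4 h, although single markers moved, with *Mertk* (log2 -1.31), *Cd68* (-0.32) and *Adgre1* (-0.25) among those that fell and *Fcgr1* (0.71) among those that rose. The largest part of this sum came from *Lyz2*, with 412157 to 491382 raw counts at 1 h and 423381 to 530382 at 4 h, so the sum says little of the other markers. Markers of T and NK cells summed to 0.254 CPM at most in the fenoterol libraries (0.298 in untreated BMDMs), and erythroid markers to 0.152 with 4 of 5 at 0 in all libraries, with *Tpsb2*, a mast cell marker, at 0 too. The 6 mast cell and basophil markers summed to 0.457 to 1 CPM at 1 h and 0.162 to 0.455 at 4 h, and of them *Kit*, with at most 19 counts in a library, was called lower (log2 -1.50, adjusted p = 0.0273), a call lost in DESeq2 (adjusted p = 0.0586) and without any of 5 single libraries. Neutrophil markers (31.3 to 54.5 CPM at 1 h and 31.7 to 53.5 at 4 h, 9 markers), dendritic cell markers (0.779 to 1.27 and 0.437 to 1.4, 5 markers) and stromal markers (35.3 to 61.4 and 26.7 to 71.6, 5 markers) overlapped between the times, and of the stromal markers *Col1a1* passed (log2 -0.42, adjusted p = 0.0454) but not without the mouse as a block (adjusted p = 0.378), in DESeq2 (0.14), or without any of 6 single libraries, with the log2 nearest to 0 (-0.20) without the 4 h library of mouse 2. The sum of 5 B cell markers was 138 to 256 CPM at 1 h and 36.1 to 78.4 at 4 h, against 234 to 397 in untreated BMDMs. It came mostly from *Ighm*, the heavy chain of IgM, which had 2677 to 4540 raw counts at 1 h and 663 to 1228 at 4 h and fell (log2 -2.17, adjusted p = 1.6e-11), while *Cd79b*, with 122 to 153 raw counts at 1 h and 159 to 213 at 4 h, did not pass (log2 0.27, adjusted p = 0.0745) and *Cd79a* and *Ms4a1* had at most 4 counts in a library. Of 4 megakaryocyte markers (2.14 to 3.23 CPM at 1 h and 4.76 to 5.73 at 4 h), *Ppbp* rose (log2 0.93, adjusted p = 0.000532). The part of these marker changes in the results below was not tested.

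Each gene that differed between the times was put in a class by its calls against untreated BMDMs in the same fit. At 1 h, 3348 genes differed from untreated (27% of those tested), with 1646 higher (13.3%) and 1702 lower (13.7%). At 4 h, 5870 differed (47.4%), with 2918 higher (23.6%) and 2952 lower (23.8%). A rise at 1 h that was lower again at 4 h was found in 705 genes and a rise that went on in 387. A fall at 1 h that was higher again at 4 h was found in 709 genes and a fall that went on in 393. A further 1285 genes, the new rises, were not called at 1 h and were higher at 4 h than at 1 h and than untreated. The 1521 new falls were not called at 1 h and were lower at 4 h than both. Neither class need be unchanged at 1 h: *Ldlrad3*, a new fall, had a log2 of -0.30 there (adjusted p = 0.0863). At neither time were 472 higher and 303 lower genes called against untreated. The 1 h libraries enter the call at 1 h and the call between the times with opposite signs, so the sizes of these classes are a description and carry no test. Without the mouse as a block, 240 genes were in the class of rises that went on and 245 in that of falls that went on.

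The classes differed in size of change. Among rises that decayed, 176 of 705 changed at least 2-fold between the times, and the median log2 change against untreated was 0.61 at 1 h and 0.11 at 4 h. Of these genes, 281 were still higher than untreated at 4 h, 284 were no longer called and 140 were lower than untreated. Rises that went on had a median log2 of 0.38 at 1 h and 0.89 at 4 h. Falls that recovered had a median of -0.38 at 1 h and 0.01 at 4 h, with 493 of the 709 no longer called against untreated, 113 above it and 103 still below it. Falls that went on had a median of -0.32 at 1 h and -0.91 at 4 h. New rises and new falls had a median of 0.37 and -0.46 at 4 h. The median number of exons per gene was 10 in new rises and in new falls, 8 in rises and in falls that went on, 7 in rises that decayed, 6 in falls that recovered and 7 over all genes tested. The median gene length was 30.5 kb for new rises and 33.1 kb for new falls, 35.2 kb for falls that went on, 26.4 kb for rises that went on, 23.3 kb for rises that decayed, 20.1 kb for falls that recovered and 21.9 kb over all genes tested. These are medians over genes with no test.

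**Figure D1:**
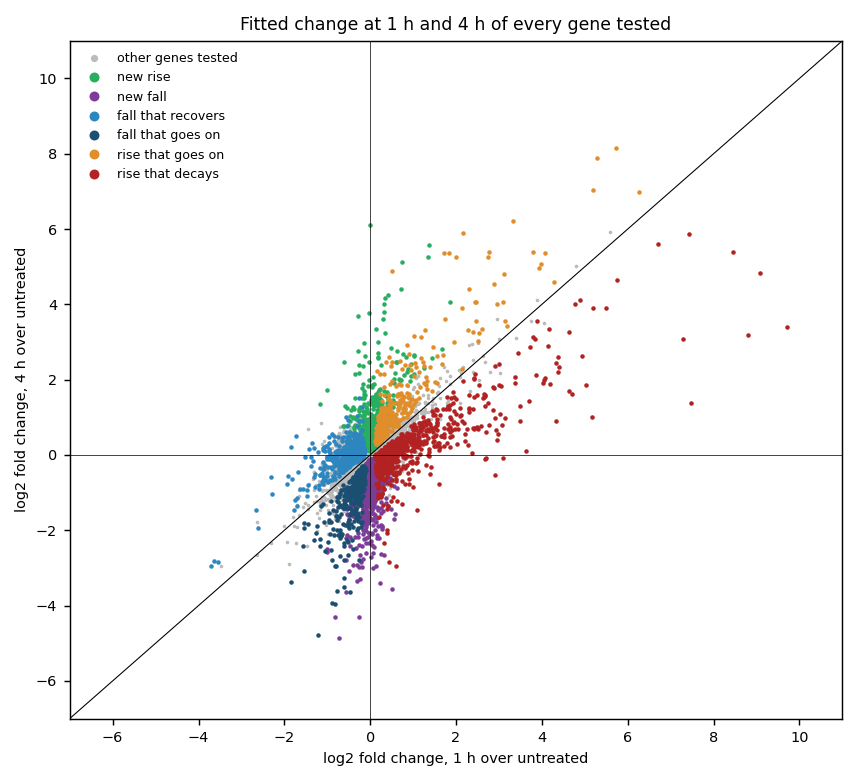
Fitted log2 fold change over untreated BMDMs at 1 h (horizontal axis) and at 4 h (vertical axis) for each of the 12386 genes tested, coloured by class, with the diagonal where both are equal. Both axes share the untreated libraries. The 705 rises that decayed (red) lie below the diagonal on the right and reach log2 9.70 at 1 h (*Fosb*), and the 1285 new rises (green) and 1521 new falls (purple) lie close to 0 at 1 h.

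Genes that were up at least 2-fold at 1 h were followed to 4 h. There were 374 of them (3.02% of the genes tested), of which 233 were lower at 4 h than at 1 h, 77 did not differ between the times by the test and 64 were higher. At 4 h, 314 of the 374 were still called above untreated, 55 were not called and 5 were below it. Genes down at least 2-fold at 1 h numbered 128 (1.03%), of which 58 were higher at 4 h than at 1 h, 54 did not pass and 16 were lower, and 94 were still called below untreated. For 290 of the genes that were up, which rose in all 4 mice and averaged 50 normalized counts or more, the share of the rise kept at 4 h was computed on the linear scale within each mouse. Its median over genes was 49.4%, and the median by mouse was 43.7%, 47.1%, 52.2% and 49.8%. Between 0 and 10% was kept by 30 genes, 9 were below their untreated level, 37 held 100 to 200% and 36 held 200% or more.

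**Figure D2:**
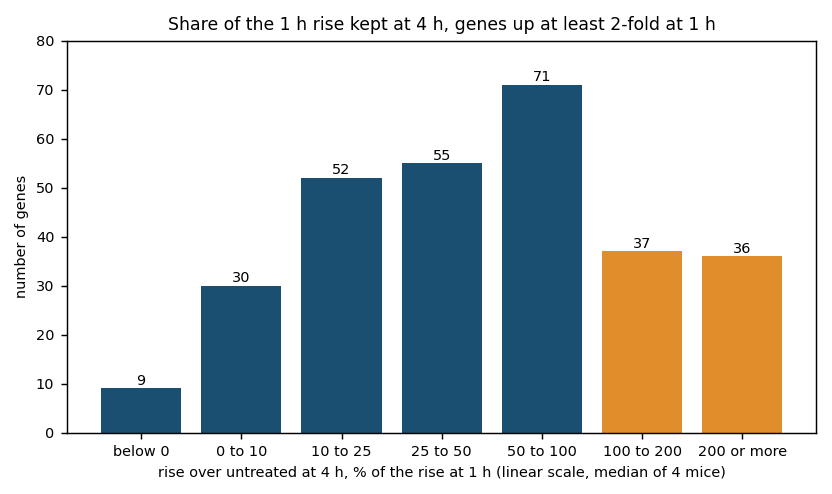
Number of genes (vertical axis) by the share of the 1 h rise over untreated that was kept at 4 h (horizontal axis, %, the median of the 4 mice), for 290 genes up at least 2-fold at 1 h. Blue bars hold genes that kept less than 100% and orange bars those at 100% or more. The ranges differ in width, so heights cannot be ranked: 30 genes lie between 0 and 10%, 71 between 50 and 100%, and 36 at 200% or more.

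The largest decays were in *Fosb*, *Apold1*, *Nr4a3*, *Tnfaip6* and *Ptgs2*. *Fosb*, a subunit of the AP-1 transcription factor, had normalized counts of 8977, 9981, 7883 and 7346 in mice 1 to 4 at 1 h and 94.9, 106, 124 and 103 at 4 h, against 12.1, 9.38, 12.5 and 5.38 in untreated BMDMs. All 4 mice lost nearly all of the rise, yet every 4 h library was still above every untreated one (log2 -6.30 ± 0.09 (SE) between the times, adjusted p = 1.36e-17). *Apold1*, an early gene of endothelial cells related to apolipoprotein L, had 866, 414, 336 and 465 at 1 h and 6.26, 7.31, 10.2 and 5.46 at 4 h (log2 -6.09 ± 0.24, adjusted p = 2.58e-12). Mouse 1 stood above the other mice at 1 h and did not at 4 h. *Nr4a3*, an orphan nuclear receptor, had 1410, 1491, 1101 and 887 at 1 h and 28.2, 23, 18.5 and 26.5 at 4 h (log2 -5.62 ± 0.12, adjusted p = 9.26e-15). *Tnfaip6*, which encodes the hyaluronan-binding protein TSG-6, had 275, 259, 154 and 141 at 1 h and 15.6, 3.13, 9.26 and 12.5 at 4 h (log2 -4.27 ± 0.25, adjusted p = 3.85e-10), with at most 1 count in an untreated library. *Ptgs2*, the inducible cyclooxygenase, had 1205, 1001, 708 and 583 at 1 h and 56.3, 45.9, 41.7 and 39.8 at 4 h (log2 -4.21 ± 0.11, adjusted p = 2.61e-14), against 3.86 to 6.7 untreated. In these 5 genes no 4 h library reached any 1 h library.

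**Figure D3:**
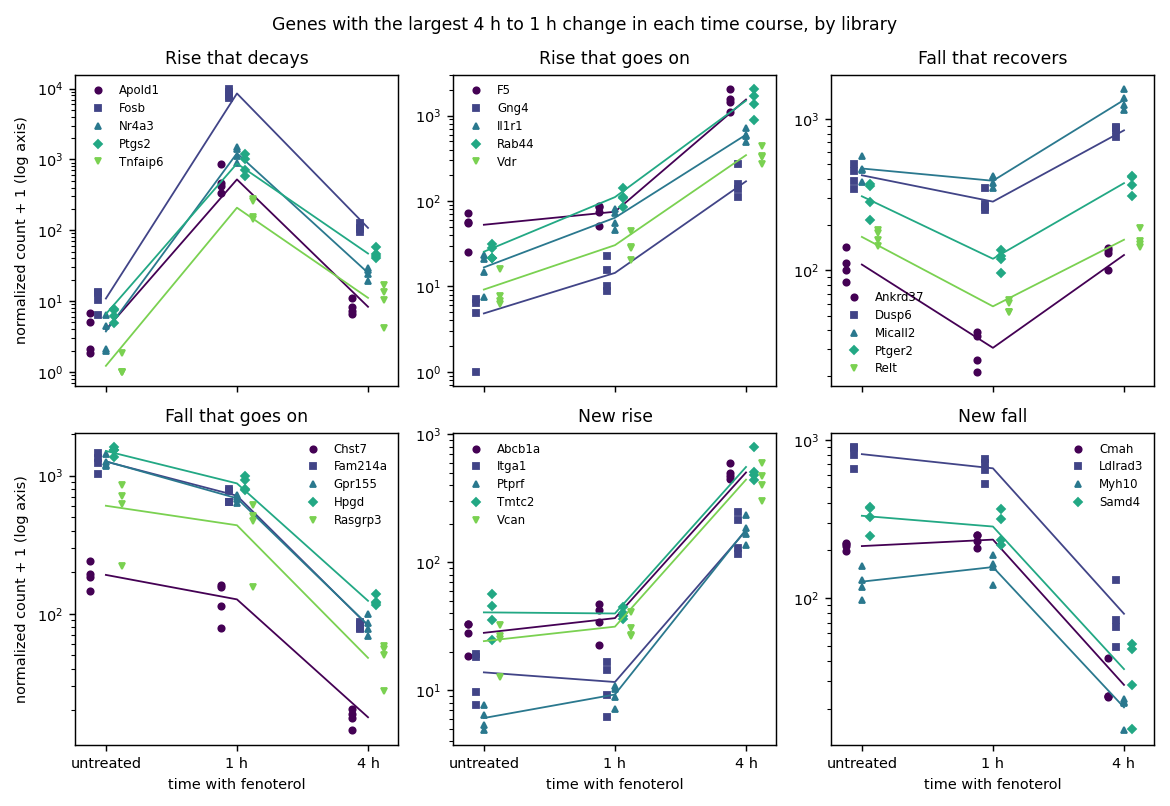
Normalized counts plus 1 (vertical axis, log scale) of the genes with the largest change between 4 h and 1 h in each of 6 classes (4 genes for new falls and 5 for each other class), in untreated BMDMs and after 1 h and 4 h of fenoterol (horizontal axis). Points are the 4 libraries of a group and lines join group means. The points at 1 h and 4 h do not overlap for any of the genes shown, and *Fosb* reaches 7346 to 9981 only at 1 h while *F5* reaches 1112 to 2063 only at 4 h.

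To show the promoter bases of 6 early genes that rose and decayed, stretches of 60 bases upstream of the start were read from the RefSeq promoters of GRCm38.p6. They are printed 5′ to 3′ on the strand of the gene, with the CRE in capitals. The full CRE, TGACGTCA, stands in the promoters of *Btg2* (log2 -2.27 between the times), *Dusp1* (-2.29) and *Maff* (-2.36). The core of the CRE, TGACG or CGTCA on the other strand, stands in those of *Fosb*, *Apold1* and *Nr4a3*. Of the 5 genes with the largest decays, 4 had the core, none had the full CRE and *Tnfaip6* had neither, and the windows printed are ones that hold a match.
*Dusp1* (chr17:26508582-26508641, minus strand): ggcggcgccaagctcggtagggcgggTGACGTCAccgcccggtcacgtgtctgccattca
*Btg2* (chr1:134079288-134079347, minus strand): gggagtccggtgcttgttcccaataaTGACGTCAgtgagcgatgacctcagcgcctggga
*Maff* (chr15:79347460-79347519, plus strand): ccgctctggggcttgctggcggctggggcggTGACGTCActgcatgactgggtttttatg
*Fosb* (chr7:19310073-19310132, minus strand): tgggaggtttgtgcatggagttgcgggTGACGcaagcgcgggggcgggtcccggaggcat
*Apold1* (chr6:134981922-134981981, plus strand): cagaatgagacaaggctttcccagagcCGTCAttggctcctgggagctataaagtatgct
*Nr4a3* (chr4:48045131-48045190, plus strand): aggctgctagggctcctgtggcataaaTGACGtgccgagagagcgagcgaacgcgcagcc

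Searched on both strands of windows of 300 bases (250 before the start and 50 after it), the full CRE was in 3.02% of 12075 promoters of tested genes, and the core, which every full CRE contains, was in 31.1%. A promoter was at hand for 76.4% of the genes tested and for 75.9 to 81.4% of the genes of each class, and because many genes had none, the classes were not compared by their promoters. A match in a window is a description and not a site of binding.

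The list of AP-1 and ATF factors, which bind DNA as pairs and drive early target genes, was almost wholly lower at 4 h. Of 12 members tested, 11 were lower and 1 higher, with a median log2 of -1.41, against 0.01 for all genes tested. The shares of all genes tested, to set beside this list and each list below, were 23% higher and 23.6% lower. *Junb* had 10465, 13429, 14374 and 16859 at 1 h and 1922, 2414, 2755 and 2084 at 4 h (log2 -2.58, adjusted p = 5.95e-13) and *Jdp2*, a repressor of AP-1, went from 2816 ± 400 (mean ± SD, n = 4) to 682 ± 39 (log2 -2.04, adjusted p = 1.73e-11). *Fosl2* kept more of its rise: it had 516 ± 41.4 untreated, 23477 ± 2656 at 1 h and 7782 ± 836 at 4 h (log2 -1.59 between the times and 3.91 against untreated at 4 h). *Maff*, a small MAF factor, rose at 1 h (log2 1.61) and was below its untreated level at 4 h (log2 -0.76, adjusted p = 0.0205). Its 4 h counts were 31.3, 15.7, 13 and 14.8, so that mouse 1 stood apart from the others. *Jun* was the exception: it had 1437 ± 84.8 untreated, 429, 345, 429 and 330 at 1 h and 1176, 776, 974 and 1019 at 4 h (log2 1.36 between the times, adjusted p = 8.57e-09). *Jun* thus moved opposite to *Junb* at each step.

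Most of the other early regulators listed were also lower at 4 h than at 1 h, though not all by the same course. Of 19 NR4A, EGR, KLF and IER genes tested, 14 were lower at 4 h than at 1 h and 1 higher, with a median log2 of -1.15. Rises that decayed made up 12 of the 19, and 4 were not called between the times. The nuclear receptor *Nr4a1* had 4709, 4976, 4288 and 4542 at 1 h and 164, 315, 312 and 261 at 4 h (log2 -4.15, adjusted p = 4.54e-14) and kept a median of 3.05% of its rise. *Nr4a2* had 4375, 4322, 3668 and 3240 at 1 h and 377, 529, 476 and 448 at 4 h (log2 -3.08, adjusted p = 3.85e-14) and kept 12.3%. Against untreated, the log2 change left at 4 h was 5.38 for *Nr4a2*, 3.19 for *Nr4a3* and 1.02 for *Nr4a1*. *Klf4*, a zinc finger factor of monocyte differentiation, had 2732, 2588, 2402 and 2090 at 1 h and 225, 180, 223 and 226 at 4 h and at 4 h did not differ from untreated by the test (log2 0.11, adjusted p = 0.505). *Id2*, an inhibitor of basic helix-loop-helix factors, went from 3831 ± 1448 to 1152 ± 537 (log2 -1.75), with mouse 4 the highest at both times. Of 15 BTG, TOB, GADD45 and PIM genes, which slow growth, sense stress or, for the PIM kinases, favour survival, 12 were lower and 1 higher, with a median log2 of -0.85. *Btg2* fell from 10660 ± 1084 to 2219 ± 336 (log2 -2.27) and the kinase gene *Pim3* from 1085 ± 115 to 303 ± 27.5 (log2 -1.84). *Gadd45b* ended below untreated (log2 -1.35) after a small rise (log2 0.41), while *Gadd45a* was low at 1 h (log2 -2.28) and had partly recovered at 4 h (log2 1.23 between the times).

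Of 26 genes of the cAMP pathway itself, 14 were higher at 4 h than at 1 h (53.8%) and 10 lower (38.5%), with a median log2 of 0.15. The shares of all genes tested were 23% and 23.6%. Among adenylyl cyclases, *Adcy9* had 842, 945, 874 and 974 at 1 h and 320, 360, 339 and 392 at 4 h (log2 -1.36, adjusted p = 6.62e-11), and *Adcy7* had 12061 ± 83.8 and 12235 ± 284 and did not pass (log2 0.02, adjusted p = 0.747).

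The phosphodiesterases, which break down cAMP, did not move together. *Pde4b* had 625 ± 71.5 untreated, 6815, 7274, 6114 and 5909 at 1 h and 2384, 3188, 2617 and 2289 at 4 h (log2 -1.32, adjusted p = 4.78e-11). *Pde3b* rose at both steps, from 663 ± 91.6 untreated to 1152, 1509, 969 and 1218 at 1 h and 4027, 5850, 4831 and 5360 at 4 h (log2 2.05, adjusted p = 3.93e-12). *Pde8a* was at 1127 ± 83.3 untreated and 1238 ± 73 at 1 h, and reached 3292, 3729, 3452 and 3353 only at 4 h (log2 1.48, adjusted p = 1.86e-12). In all 3 genes the 1 h and 4 h libraries did not overlap. The salt-inducible kinases, which hold the CREB coactivators out of the nucleus, split as well. *Sik1* had 4965, 5352, 4570 and 4781 at 1 h and 1004, 1307, 830 and 947 at 4 h (log2 -2.29, adjusted p = 8.03e-08), and *Sik3* had 1476, 1636, 1530 and 1415 and 2977, 3038, 2952 and 2932 (log2 0.98, adjusted p = 6.1e-11). *Crem*, a CREB relative with a repressor form, named here beyond the rule for naming genes, went from 5861 ± 1007 to 3391 ± 357 (log2 -0.78) and kept a median of 58.4% of its rise. *Arrb2*, which encodes 1 of the β-arrestins that take receptors off the signal, had 9462 ± 444 and 9657 ± 559 (log2 0.03, adjusted p = 0.628). This value does not speak for the other β-arrestin genes.

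**Figure D4:**
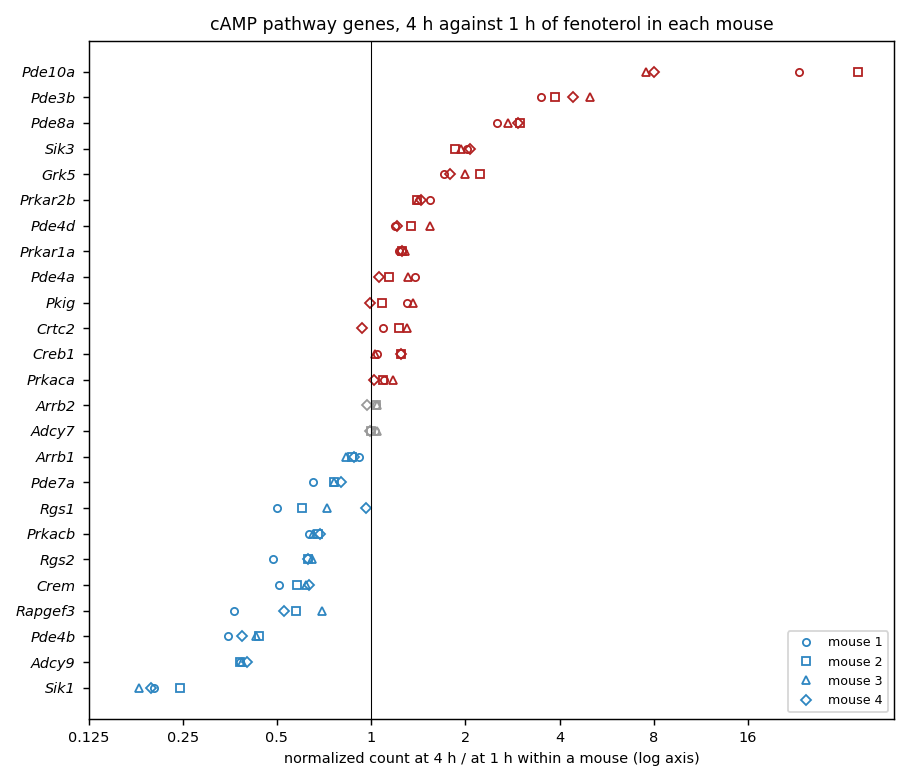
Ratio of the normalized count at 4 h to that at 1 h within each of the 4 mice (horizontal axis, log scale) for tested genes of the cAMP pathway list (vertical axis), with symbols for mice. Red marks genes called higher at 4 h, blue genes called lower and grey the 2 not called. *Sik1* has its 4 mice furthest to the left, *Pde3b* and *Pde8a* lie above a ratio of 2 in every mouse, and *Pde10a* is furthest to the right but had a mean of 1.79 normalized counts at 1 h.

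The list of phosphatases that switch off MAP kinases and of the SPRY and SPRED inhibitors of Ras signalling moved unevenly. Of its 14 members tested, 9 were lower at 4 h and 3 higher, with a median log2 of -0.74. *Dusp1* had 6449, 6056, 6087 and 4782 at 1 h and 1146, 1084, 1311 and 1236 at 4 h (log2 -2.29, adjusted p = 5.7e-13), and *Dusp16* had 362 ± 32.4 untreated, 944 ± 209 at 1 h and 360 ± 60.2 at 4 h, where it did not differ from untreated by the test (log2 -0.02, adjusted p = 0.936). *Dusp5*, a nuclear ERK phosphatase, kept a median of 49.4% of its rise, with 45.4 ± 7.99 untreated, 4757 ± 719 at 1 h and 2216 ± 472 at 4 h. The ERK phosphatases *Dusp6* and *Dusp7* went the other way. *Dusp6* had 272, 260, 250 and 348 at 1 h and 869, 760, 840 and 887 at 4 h (log2 1.58, adjusted p = 1.94e-10), above the untreated 345 to 506. *Dusp7* had 104, 102, 138 and 126 at 1 h and 304, 255, 255 and 257 at 4 h (log2 1.18, adjusted p = 1.26e-07), still under the untreated 680 to 776. *Spred1*, an inhibitor of Ras signalling, did not differ from untreated at 1 h by the test and then fell (1822 ± 88 to 837 ± 120, log2 -1.12).

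Of 21 negative regulators of NF-κB and of cytokine mRNA, 14 were lower at 4 h and 3 higher, with a median log2 of -0.55. *Tnfaip3*, which encodes the ubiquitin-editing enzyme A20, had 682, 768, 633 and 679 untreated, 1372, 1604, 1272 and 1235 at 1 h and 372, 431, 401 and 344 at 4 h, so that each 4 h library was below each untreated one (log2 -1.82 between the times, adjusted p = 5.7e-13). *Zfp36*, which encodes tristetraprolin and destabilizes cytokine mRNAs, went from 9581 ± 679 to 4433 ± 450 (log2 -1.12), *Nfkbie* from 2648 ± 225 to 1162 ± 36.1 (log2 -1.18) and *Arid5a* from 2008 ± 178 to 821 ± 73.8 (log2 -1.29). These 3 were still called above untreated at 4 h. *Arid5a*, against the name of the list, is known to stabilize cytokine mRNAs.

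Of 17 circadian clock genes tested, 9 were lower and 4 higher at 4 h, with a median log2 of -0.45. *Per1*, a repressor of the clock with CREB among its known activators, had 4512, 5446, 4935 and 5124 at 1 h and 1392, 1484, 1492 and 1315 at 4 h (log2 -1.82, adjusted p = 2.43e-13), and *Nfil3* fell from 6528 ± 995 to 1562 ± 262 (log2 -2.06). *Nr1d1*, the repressor REV-ERBα, moved against them, from 156 ± 27.3 to 267 ± 15.9 (log2 0.78, adjusted p = 2.37e-05). Its activating counterpart *Rora* did not differ from untreated at 1 h by the test and then fell (589 ± 30.2 to 271 ± 36.3, log2 -1.12). *Clock* itself did not pass (log2 -0.05, adjusted p = 0.555).

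Of 14 chemokine genes tested, 8 were higher and 3 lower at 4 h, with a median log2 of 0.65. The largest change on the list was a fall, in *Cxcl10*, a chemokine induced by interferon, which averaged under 50 normalized counts and had 71.9, 86.7, 66.7 and 63.6 at 1 h and 14.6, 9.4, 13 and 39.8 at 4 h (log2 -1.90, adjusted p = 8.53e-05). *Ccl9* had 21471, 19253, 18778 and 18458 at 1 h and 36980, 38369, 33535 and 36535 at 4 h (log2 0.90, adjusted p = 4.72e-10). The inflammatory chemokines *Ccl3* and *Ccl4* remained far below untreated. *Ccl3* had 992, 816, 949 and 645 untreated, 80.2, 66.5, 66.7 and 57.4 at 1 h and 130, 81.4, 147 and 116 at 4 h (log2 0.82 between the times and -2.82 against untreated at 4 h), and *Ccl4* had a log2 of 0.67 between the times and -1.94 against untreated at 4 h. *Ccl5* passed the test (log2 1.12, adjusted p = 0.0146), but its 4 h counts of 366, 115, 168 and 435 overlapped its 1 h counts of 87.4, 159, 162 and 79. *Ccl5* was lower at 4 h in mouse 2, and its call rested on mice 1 and 4: without the 1 h or the 4 h library of either, the log2 was 0.65 to 0.90 and the adjusted p 0.0692 to 0.0922. With all libraries, DESeq2 gave *Ccl5* a log2 of 1.16 and an adjusted p of 0.0634.

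Of 14 interleukins and related cytokines, 7 were lower and 3 higher at 4 h, with a median log2 of -0.32. *Osm*, oncostatin M, had 2169, 2285, 1877 and 1779 at 1 h and 398, 440, 439 and 370 at 4 h (log2 -2.30, adjusted p = 6.47e-14). *Il1b* went from 1668 ± 347 to 657 ± 187 (log2 -1.36) but was still at a log2 of 3.27 above untreated. *Tnf* fell at both steps, to 124 ± 21.7 from 195 ± 27.6 at 1 h and 253 ± 32.3 untreated (log2 -0.63 between the times, adjusted p = 0.000272). *Il10*, an anti-inflammatory cytokine, did not differ from untreated by the test at 1 h (log2 -0.06, adjusted p = 0.813) and had 33.9 ± 10.2 at 4 h against 71.1 ± 11.4 at 1 h (log2 -1.08). *Csf1*, the macrophage growth factor, went from 271, 176, 229 and 130 to 471, 407, 422 and 271 and was higher at 4 h in each mouse, although the groups overlapped (log2 0.97, adjusted p = 2.92e-07).

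Of 23 chemokine and cytokine receptor genes, 7 were higher (30.4%) and 9 lower (39.1%), against 23% and 23.6% of all genes tested. Scaled by library size only, 9 were higher and 6 lower. *Il1r1*, the signalling IL-1 receptor, had 71.9, 78.8, 54.9 and 45.1 at 1 h and 581, 724, 596 and 483 at 4 h, against 13.9, 20.1, 22.2 and 6.46 untreated (log2 3.26 ± 0.12, adjusted p = 1.31e-12). Its decoy *Il1r2* rose from 86 ± 13.4 to 181 ± 73.3 (log2 1.02). *Ccrl2* fell from 3964 ± 580 to 738 ± 89.9 (log2 -2.42). *Cx3cr1*, the fractalkine receptor, had 211, 175, 198 and 260 at 1 h and 22.9, 37.6, 79.6 and 78 at 4 h (log2 -1.95, adjusted p = 5.9e-07), and *Ccr1* had 602, 414, 550 and 473 and 1752, 820, 1091 and 1085 (log2 1.19, adjusted p = 1.55e-08). Mouse 1 was the lowest for *Cx3cr1* and the highest for *Ccr1* at 4 h.

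Of 22 Toll-like receptor and signalling genes, 8 were higher (36.4%) and 10 lower (45.5%) at 4 h, against 23% and 23.6% of all genes tested. *Tlr5*, the flagellin receptor, had 306, 478, 324 and 274 at 1 h and 1262, 1975, 1500 and 1181 at 4 h, against 69.7 ± 20.5 untreated (log2 2.10, adjusted p = 1.02e-12). *Tlr7*, the endosomal RNA sensor, fell at both steps, from 8718 ± 1072 untreated to 5463 ± 647 at 1 h and 1999 ± 122 at 4 h (log2 -1.44). *Tlr2* was above untreated at 1 h (log2 0.74) and below it at 4 h (log2 -0.68). *Tlr4*, the lipopolysaccharide receptor, was below untreated at 1 h (log2 -0.78) and at 4 h did not differ from it by the test (log2 0.11, adjusted p = 0.257).

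Of 15 prostaglandin synthesis and receptor genes, 7 were lower and 3 higher at 4 h. Beside *Ptgs2*, the synthases *Hpgds* (5874, 5278, 5963 and 4733 at 1 h and 1986, 1418, 1952 and 1854 at 4 h, log2 -1.60) and *Tbxas1* (4667 ± 264 and 2331 ± 80.9, adjusted p = 4.15e-11) fell between the times. Neither synthase differed from untreated at 1 h by the test. *Hpgd*, which inactivates prostaglandins, had 801, 998, 789 and 922 at 1 h and 115, 119, 121 and 139 at 4 h, against 1370 to 1604 untreated (log2 -2.82 ± 0.08, adjusted p = 3.85e-14). A pair of receptors of prostaglandin E2 that also raise cAMP parted. *Ptger2* had 280, 359, 215 and 373 untreated, 94.6, 123, 118 and 135 at 1 h and 411, 416, 310 and 365 at 4 h (log2 1.67 between the times, adjusted p = 9.38e-09), while *Ptger4* stayed low, at 145 ± 16.6 and 142 ± 24.2 against 727 ± 147 untreated (log2 -0.02 between the times, adjusted p = 0.898).

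Triglyceride and lipid droplet genes were lower at 4 h in 12 of 25 members and higher in 6, with a median log2 of -0.18. *Hilpda*, an inhibitor of the lipase ATGL, had 1556, 1196, 1223 and 1042 at 1 h and 749, 609, 768 and 653 at 4 h (log2 -0.85, adjusted p = 4.97e-07) and kept a median of 52.6% of its rise over the untreated 80.5 to 113. *Dgat1*, which makes triglyceride in its last step and is named here beyond the rule, had 290, 338, 353 and 328 untreated, 3318, 3496, 2600 and 2629 at 1 h and 3483, 4463, 3094 and 3143 at 4 h. Its 1 h and 4 h libraries overlapped, and the small rise between them, seen in each mouse (log2 0.23 ± 0.08, adjusted p = 0.0187) was not called without the mouse as a block or without any of 4 single libraries, with adjusted p up to 0.144. *Dgat2*, the other enzyme of this step, had 104, 73.2, 96.1 and 21.5 at 1 h and 51.1, 45.9, 44.4 and 17.2 at 4 h (log2 -0.85, adjusted p = 0.00875), with mouse 4 low at both times, and was not called without the block (adjusted p = 0.235). The lipase gene *Pnpla2*, which encodes ATGL, did not pass (2982 ± 216 and 3028 ± 286, log2 0.02, adjusted p = 0.841), while its coactivator *Abhd5* fell from 757 ± 34.2 to 423 ± 37.4 (log2 -0.84) and the monoglyceride lipase *Mgll* from 109 ± 32.3 to 38.6 ± 9.46 (log2 -1.50). *Agpat4*, an acyltransferase of an earlier step, rose from 468 ± 32.9 to 894 ± 37.2 (log2 0.93).

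Cholesterol synthesis genes were higher at 4 h in 12 of 24 members and lower in 2, with a median log2 of 0.26, and 17 were higher when only library size was used for scaling. *Mvd* had 464, 304, 341 and 390 at 1 h and 1064, 608, 620 and 585 at 4 h (log2 0.92, adjusted p = 3.39e-07), *Sqle* had 1290, 637, 777 and 851 and 2201, 1467, 1264 and 1371 (log2 0.83, adjusted p = 1.39e-07), and *Fdps* had 161, 71, 100 and 69.8 and 277, 161, 149 and 149 (log2 0.88, adjusted p = 4.47e-05). The groups overlapped for *Sqle* and *Fdps*, since mouse 1 was the highest for all 3 genes at both times, and each gene was higher at 4 h in each mouse. Without its 4 h library, 11 members were higher and 2 lower. *Scd2*, a fatty acid desaturase, showed the same mouse in front, with 2916, 1367, 2004 and 1616 and 8516, 4088, 4324 and 4288 (log2 1.41, adjusted p = 3.62e-11). In the list of LXR, PPARG and lipid efflux genes, 8 of 20 were lower and 6 higher. *Pparg*, the lipid-sensing nuclear receptor, had 1021, 1013, 1062 and 1107 at 1 h and 204, 216, 256 and 352 at 4 h (log2 -2.04, adjusted p = 8.12e-12), and *Lpl*, lipoprotein lipase, went from 51465 ± 12210 to 19687 ± 3371 (log2 -1.37).

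Glycolysis and glucose transport genes were higher at 4 h in 15 of 28 members and lower in 7, with a median log2 of 0.28. *Slc16a3*, the lactate exporter MCT4, had 739, 764, 693 and 759 untreated, 5802, 7332, 4859 and 5260 at 1 h and 11904, 14250, 10770 and 10846 at 4 h (log2 1.05, adjusted p = 2.65e-10). *Egln3*, an oxygen-sensing prolyl hydroxylase, rose from 89.2 ± 19 to 192 ± 59.1 (log2 1.08), and *Hk2*, hexokinase 2, recovered from 507 ± 55.7 to 897 ± 120 (log2 0.81). *Slc2a3*, the transporter GLUT3, went from 276 ± 28 to 117 ± 18.3 (log2 -1.24), and *Vegfa* from 12586 ± 1784 to 7336 ± 1076 (log2 -0.77), which was still a log2 of 3.07 over untreated. Of 59 nuclear subunits of oxidative phosphorylation, 2 were higher and 8 lower with a median log2 of 0.00, and 11 were higher and 1 lower with scaling by library size only. The 7 genes of the mitochondrial genome that were tested had log2 differences of -0.08 (*mt-Nd2*) to 0.30 (*mt-Nd6*), with an adjusted p of 0.264 for *mt-Nd6*, the lowest of them, which passed only without the 1 h library (log2 0.53, adjusted p = 0.0378) or the 4 h library (log2 0.56, adjusted p = 0.0122) of mouse 1.

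**Figure D5:**
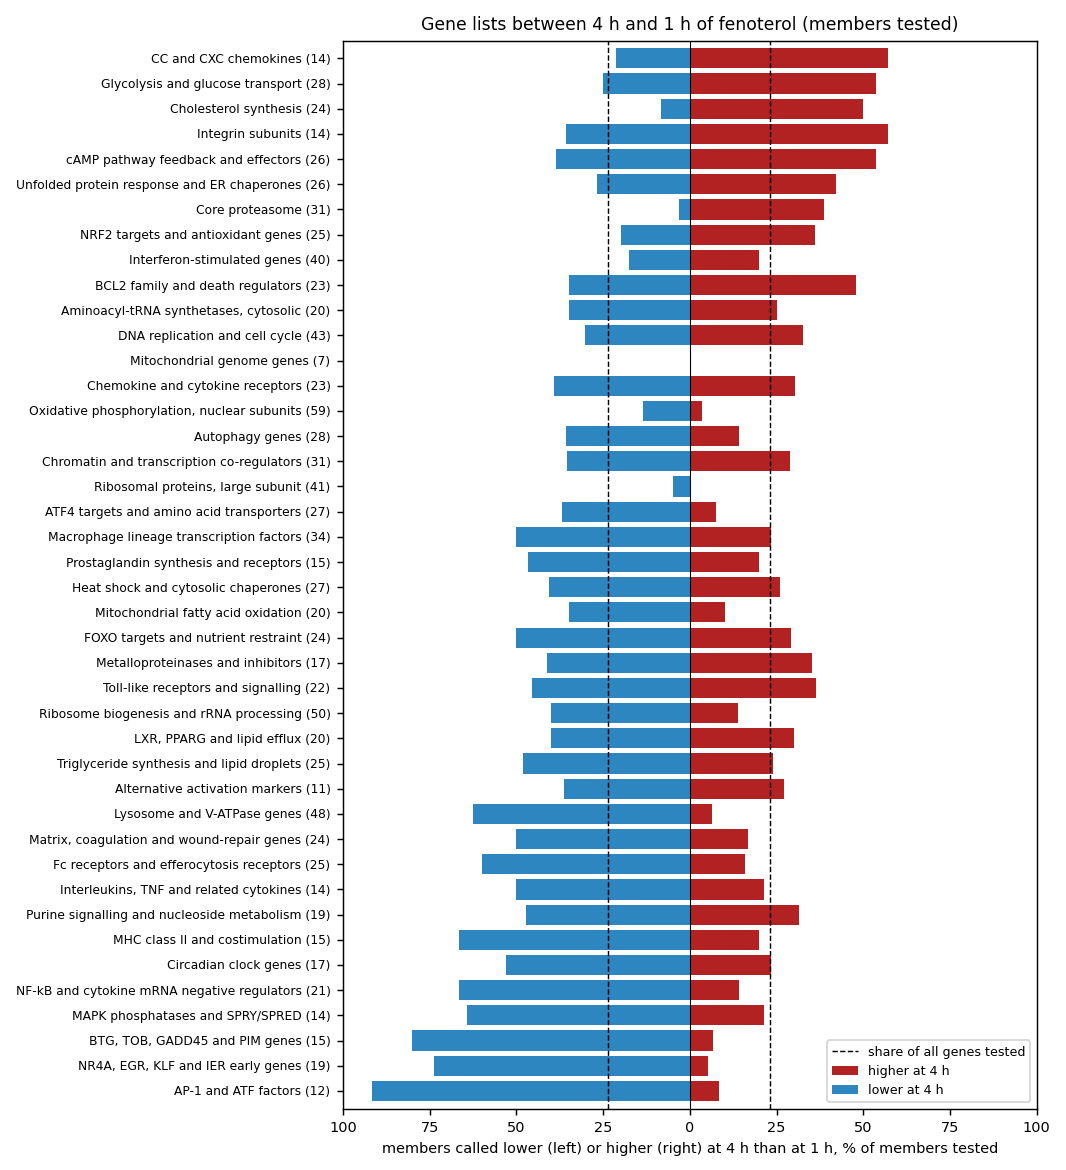
Share of the tested members of gene lists that were called lower (blue, to the left) or higher (red, to the right) at 4 h than at 1 h (horizontal axis, %), with the number tested in parentheses and lists ordered by median log2 difference. Dashed lines are the shares of all genes tested, 23% higher and 23.6% lower. AP-1 and ATF factors (11 of 12 lower) are at the bottom and chemokines (8 of 14 higher) at the top.

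Several lists of macrophage functions were mostly lower at 4 h. Of 48 lysosome and V-ATPase genes, 30 were lower and 3 higher at 4 h, with a median log2 of -0.22. The proton pump subunit *Atp6v0a1* had 13882, 13046, 12915 and 13456 at 1 h and 4630, 3693, 4263 and 4543 at 4 h (log2 -1.64, adjusted p = 2.43e-13), *Lipa*, the lysosomal acid lipase, fell from 48939 ± 3320 to 23408 ± 1010 (log2 -1.06), and *Mitf*, a factor that drives lysosome genes, from 2003 ± 124 to 589 ± 52.8 (log2 -1.76). None of these 3 differed from untreated at 1 h by the test. *Ctsl*, the protease cathepsin L, rose from 47329 ± 3488 to 83994 ± 5708 (log2 0.83). Of 15 MHC class II and costimulation genes, 10 were lower and 3 higher, with a median log2 of -0.43, and 4 were lower and 2 higher without the mouse as a block. *Cd40* had 194, 189, 167 and 184 at 1 h and 35.5, 23, 27.8 and 28.9 at 4 h (log2 -2.66, adjusted p = 1.21e-10), *Cd48* went from 4840 ± 181 to 1623 ± 157 (log2 -1.58) and *Cd83* from 9507 ± 1015 to 2234 ± 384 (log2 -2.10). *Ciita*, the master regulator of MHC class II, had 89.4, 195, 43.2 and 95.4 at 1 h and 42.8, 88.7, 13 and 29.6 at 4 h, lower in each mouse with overlapping groups (log2 -1.33, adjusted p = 6.87e-06; without the block, adjusted p = 0.0969). *Cd86* rose from 1192 ± 237 to 2400 ± 510 (log2 1.01). *Ighm*, counted above with the B cell markers, fell with this list.

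Of 25 Fc receptor and efferocytosis genes, 15 were lower and 4 higher, with a median log2 of -0.30. *Sirpa*, which binds the signal CD47 on other cells, had 77132, 72163, 82326 and 74524 at 1 h and 30417, 24594, 31009 and 32428 at 4 h (log2 -1.37, adjusted p = 2.28e-12). *Mertk*, a receptor for dying cells, went from 3370 ± 182 to 1353 ± 41.8 (log2 -1.31), and *Itgb3* from 207 ± 70.7 to 59 ± 14.3 (log2 -1.80). *Cd300lf*, a receptor for phospholipids, rose from 385 ± 93.2 to 850 ± 146 (log2 1.15).

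Of 14 integrin subunits, 8 were higher and 5 lower. *Itga1*, the α1 subunit of a collagen receptor, had 17.3, 6.7, 8.68 and 18.3 untreated, 8.22, 13.5, 15.7 and 5.13 at 1 h and 247, 212, 116 and 129 at 4 h (log2 3.99 ± 0.28, adjusted p = 4.49e-09). *Itga9* rose from 476 ± 48.3 to 1673 ± 233 (log2 1.81), and *Itga6*, of a laminin receptor, fell from 4995 ± 1024 to 1498 ± 425 (log2 -1.75). The other largest new rises, *Vcan*, *Ptprf*, *Tmtc2* and *Abcb1a*, are on none of the lists. *Vcan*, the matrix proteoglycan versican, had 29.8, 25.9, 40.2 and 25.6 at 1 h and 592, 473, 399 and 299 at 4 h (log2 3.83, adjusted p = 2.53e-12). The receptor phosphatase *Ptprf* had 9.25, 7.88, 9.81 and 6.15 and 183, 233, 165 and 136 (log2 4.39, adjusted p = 8.91e-12). *Tmtc2*, which adds mannose to proteins, had 34.9, 43.9, 39.2 and 36.9 and 503, 791, 482 and 440 (log2 3.81, adjusted p = 2.4e-12), and the drug transporter *Abcb1a* had 32.9, 41.7, 46.1 and 21.5 and 498, 595, 449 and 467 (log2 3.82, adjusted p = 5.67e-12), some of whose reads could belong to its close relative *Abcb1b*. Neither these genes nor *Itga1* differed from untreated at 1 h by the test.

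Of 24 matrix, coagulation and wound-repair genes, 12 were lower and 4 higher. *Tgm2*, a transglutaminase that crosslinks proteins, had 1326, 1177, 1599 and 1163 untreated, 10784, 9566, 10005 and 8423 at 1 h and 31201, 30903, 32043 and 28796 at 4 h (log2 1.67, adjusted p = 9.05e-13). *Thbd*, which encodes the anticoagulant receptor thrombomodulin, fell from 2325 ± 219 to 516 ± 70.5 (log2 -2.16). *Nid2*, a basement membrane protein, rose from 136 ± 13.1 to 786 ± 98.3 (log2 2.53) and the growth factor *Pdgfc* fell from 266 ± 61.6 to 60.3 ± 17.3 (log2 -2.13).

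Beside *Il1r1*, the largest rises that went on were *F5*, *Rab44*, *Gng4* and *Vdr*. *F5*, coagulation factor V, which is on none of the lists, had 71.9, 55, 24.1 and 56 untreated, 87.4, 84.5, 50 and 73.9 at 1 h and 1553, 2063, 1112 and 1431 at 4 h (log2 4.38 ± 0.11, adjusted p = 2.61e-14). *Rab44*, a large Rab GTPase, had 107, 141, 111 and 83.1 at 1 h and 1348, 2033, 1701 and 889 at 4 h (log2 3.73 ± 0.11, adjusted p = 1.68e-13), *Gng4*, a G protein γ subunit, had 21.6, 7.88, 14.7 and 9.23 and 268, 138, 158 and 111 (log2 3.64, adjusted p = 4.64e-10), and *Vdr*, the vitamin D receptor, had 43.2, 27, 19.6 and 27.7 and 333, 444, 329 and 267 (log2 3.53, adjusted p = 2.4e-10). In each, all 4 mice rose by a further step after 1 h. Of the 34 lineage transcription factors on the list that holds *Vdr*, 8 were higher and 17 lower. *Stat4*, a signal transducer of IL-12, was among the new rises, from 106 ± 12.6 to 794 ± 104 (log2 2.89).

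The largest falls that went on were in *Rasgrp3*, *Fam214a*, *Gpr155*, *Chst7* and *Hpgd*. *Rasgrp3*, an activator of Ras and Rap, had 860, 710, 626 and 220 untreated, 611, 472, 505 and 155 at 1 h and 49, 57.4, 54.6 and 26.5 at 4 h (log2 -3.16 ± 0.13, adjusted p = 3.34e-12). Mouse 4 was the lowest in each group, and the fall was there in each mouse. *Fam214a* had 644, 793, 645 and 773 at 1 h and 78.2, 85.6, 76.8 and 83.4 at 4 h (log2 -3.14, adjusted p = 2.61e-14). *Gpr155*, a lysosomal cholesterol sensor, had 719, 680, 701 and 636 and 76.1, 84.6, 67.6 and 99 (log2 -3.05, adjusted p = 4.28e-13), and the sulfotransferase *Chst7* had 78.1, 154, 112 and 161 and 16.7, 17.7, 19.4 and 13.3 (log2 -2.90, adjusted p = 1.92e-09).

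Among the largest new falls were *Cmah*, *Samd4*, *Ldlrad3* and *Myh10*. *Cmah*, which makes a sialic acid, had 205, 249, 249 and 228 at 1 h and 22.9, 23, 40.7 and 22.6 at 4 h (log2 -3.08, adjusted p = 6.29e-11), with mouse 3 above the others at 4 h. The RNA-binding protein gene *Samd4* had 231, 366, 216 and 314 and 46.9, 50.1, 13.9 and 27.3 (log2 -3.07, adjusted p = 3.38e-10). *Ldlrad3*, of the LDL receptor family, had 645, 756, 523 and 714 and 64.7, 48, 71.3 and 130 (log2 -3.04, adjusted p = 7.52e-11), and *Myh10*, a nonmuscle myosin heavy chain, had 120, 186, 162 and 156 and 20.9, 13.6, 22.2 and 21.1 (log2 -2.99, adjusted p = 6.57e-10). None of the 4 differed from untreated at 1 h by the test.

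Beside *Ptger2* and *Dusp6*, the largest recoveries were in *Ankrd37*, *Micall2* and *Relt*. *Ankrd37*, an ankyrin repeat gene, had 110, 99.2, 82 and 142 untreated, 38, 20.3, 24.5 and 35.9 at 1 h and 128, 135, 99.1 and 140 at 4 h (log2 2.07 ± 0.17, adjusted p = 1.96e-08). *Micall2*, a Rab effector, dipped little at 1 h (log2 -0.26) and then rose well past untreated, from 410, 350, 419 and 375 to 1582, 1226, 1381 and 1141 (log2 1.77, adjusted p = 2.85e-12). *Relt*, a receptor of the TNF receptor family, had 143 to 184 untreated, 62.7, 51.8, 59.8 and 52.3 at 1 h and 155, 188, 148 and 141 at 4 h (log2 1.47, adjusted p = 1.22e-07).

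Genes of purine signalling and nucleoside metabolism were lower at 4 h in 9 of 19 members and higher in 6. *Nt5e*, the enzyme CD73 that makes adenosine, had at most 4 raw counts in an untreated library, 109, 95.7, 49 and 55.4 normalized counts at 1 h and 360, 681, 408 and 421 at 4 h (log2 2.60, adjusted p = 2.7e-09). The adenosine receptor *Adora2b*, which also raises cAMP, fell back in part, from 974 ± 75.4 to 575 ± 68.4 with 34.9 ± 8.68 untreated (log2 -0.76). The ADP receptors *P2ry12* (304 ± 28.5 to 97 ± 8.67, log2 -1.65) and *P2ry13* (217 ± 28.3 to 62.3 ± 10.9, log2 -1.80) fell. Of 43 DNA replication and cell cycle genes, 14 were higher (32.6%) and 13 lower (30.2%), against 23% and 23.6% of all genes tested. Without the mouse as a block, 3 were higher and 12 lower. *Cdk6* had 2447, 1960, 2450 and 2176 at 1 h and 477, 328, 443 and 499 at 4 h (log2 -2.37, adjusted p = 5.35e-13), *Ccnd1*, cyclin D1, fell from 2071 ± 616 to 681 ± 217 (log2 -1.59), and both ended below untreated. *Cdkn1a*, the inhibitor p21, kept a median of 32.1% of its rise, and *Myc* 20.1%.

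Among housekeeping lists, 2 of 41 large-subunit ribosomal protein genes were lower and 39 did not pass, 20 of 50 ribosome biogenesis genes were lower and 7 higher, and 12 of 31 core proteasome genes were higher and 1 lower with a median log2 of 0.07. Scaled by library size only, 11 ribosome biogenesis genes were higher and 13 lower, and 19 proteasome genes were higher and 1 lower. Unfolded protein response genes were higher in 11 of 26 members and lower in 7, NRF2 targets in 9 of 25 and 5, aminoacyl-tRNA synthetases in 5 of 20 and 7, ATF4 targets in 2 of 27 and 10, and heat shock genes in 7 of 27 and 11. Scaled by library size only, 9 tRNA synthetases were higher and 2 lower, and 5 ATF4 targets were higher and 6 lower, while without the mouse as a block 2 ATF4 targets were higher and 5 lower and without the 1 h library of mouse 2 the counts were 3 and 6. Autophagy genes were higher in 4 of 28 and lower in 10, fatty acid oxidation genes in 2 of 20 and 7, FOXO targets in 7 of 24 and 12, BCL2 family genes in 11 of 23 and 8, chromatin genes in 9 of 31 and 11, metalloproteinases in 6 of 17 and 7, and alternative activation markers in 3 of 11 and 4. Of all genes tested, 23% were higher and 23.6% lower, or 46.6% called. The share called was near that for autophagy (50%), fatty acid oxidation (45%), ATF4 targets (44.4%) and the proteasome (41.9%). Scaled by library size only, the balance turned for chromatin genes (13 higher and 10 lower) and metalloproteinases (7 and 6). For fatty acid oxidation, 2 genes were lower with scaling by library size only, and 4 were lower without the 1 h or the 4 h library of mouse 2 or of mouse 4. For oxidative phosphorylation, 4 were higher and 5 lower without the 1 h library of mouse 4, and 5 were higher and 5 lower without its 4 h library. Of 40 interferon-stimulated genes, 8 were higher and 7 lower, with 12 higher and 3 lower when scaled by library size only and 5 each without the mouse as a block. The number lower ranged from 3 to 13 over the alternatives. Of the genes named above, *Ankrd37*, *Ccnd1*, *Ctsl*, *Tgm2*, *Gadd45a*, *Ptger4*, *Abhd5* and *Abcb1a* share 10.1% to 26.8% of their exon bases with a gene on the other strand, and *Fdps* and *Stat4* share 26.7% with a gene on the same strand. The neighbour held 7655 counts against 15506 for *Ccnd1*, and at most 311 for the others.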

How the data were processed

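RNA-seq counts from the 8 fenoterol libraries and the 4 untreated libraries of the same mice were analysed. Per the labels and the study's methods, polyadenylated RNA with an RNA integrity over 8.5 was made into stranded TruSeq libraries and sequenced as single reads of 50 bases in 1 lane. The submitters' processing notes name TopHat 2.0.11, HTSeq 0.8.0 and GRCm38. The deposited values are raw read counts per gene, with no normalization by the authors. Which strand was counted, and which gene annotation, is not given in the sources used here. Of 53379 genes, 53274 matched GENCODE M21, which gave the symbols.

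Counts were fitted in edgeR 4.0.16 (R 4.3.3) with the quasi-likelihood test, TMM scaling, filterByExpr and all 12 libraries, with a term for the mouse, since the number in the column names is that of the animal. Deviations of log2 CPM from the group means correlated between 4 h and 1 h of the same mouse in each of 4 pairs (r from 0.34 to 0.459). Those of different mice gave r from -0.256 to -0.0143. Centring on the means of 4 libraries pulls the latter below 0 when the former are positive, so they add no support. The p-values were adjusted by Benjamini-Hochberg over 12386 genes, with a threshold of 0.05. On simulated counts for 12249 genes, of which 200 were changed, 52 of 67 genes changed 1.5-fold, 57 of 67 changed 2-fold and 66 of 66 changed 4-fold were recovered, with 8 false calls. In the data 46.6% of genes were called, a far larger share, so the simulation does not cover errors that scaling could bring. Replicates differed by more than sampling noise (chi-square per degree of freedom 9.38 to 19.5). Total counts were 14580533 to 24153284 per library.

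Named genes were the 5 with the largest log2 change in each class (mean normalized count of at least 50, all 4 mice in 1 direction), up to 6 called members of each list described by the same measure, and members that did not pass, given with values. *Crem*, *Dgat1*, *Cxcl10*, *Pde10a* and the cell type markers named singly were chosen or read after their values were seen where the rule does not give them. Some genes that the rule names, and 1 list, are not reported here. The comparison, the gene lists and the rule were chosen with earlier results of these data known. The alternatives were RLE scaling, library size only, other filters on low counts, no mouse term, the 8 fenoterol libraries alone, DESeq2 1.42.0, limma 3.58.1 (voom and trend), an adjusted p under 0.01 and leaving out each of 12 libraries.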

Additional observations from a re-analysis of the deposited data

Results flagged for a closer look

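In 300 groups of 4 libraries, 1 for each of 150 genes at 1 h and at 4 h, a library was set apart when its gap to the nearest of the others, divided by the range of the group, was above Dixon's critical value for 4 samples. That held in 15 groups, and chance, at about 1 in 20, gives 15 as well, so the libraries below are given as values only. For 3 lipid synthesis genes it was the 4 h library of mouse 1 that stood high: *Scd2* had a normalized count of 8516 against 4088 to 4324 in the others (ratio 0.947), *Mvd* 1064 against 585 to 620 (0.926) and *Fdps* 277 against 149 to 161 (0.908). The same library was high for *Dusp7*, with 304 against 255 to 257 (0.944), and for *Maff*, with 31.3 against 13 to 15.7 (0.853).

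At 4 h, mouse 2 was low for *Klf4*, with 180 against 223 to 226 (0.935), and for *Myh10*, with 13.6 against 20.9 to 22.2 (0.843), and high for *Stat4*, with 949 against 734 to 749 (0.932), and for *Vegfa*, with 8935 against 6631 to 6984 (0.847). Mouse 3 was high for *Cmah* at 4 h, with 40.7 against 22.6 to 23 (0.98), and low at 1 h for *Adora2b*, with 861 against 1004 to 1023 (0.882), and *Rora*, with 543 against 603 to 604 (0.985). Mouse 4 was low at 1 h for *Col1a1*, with 285 against 441 to 460 (0.893), and high at 4 h for *Rora*, with 325 against 250 to 256 (0.927), and *Spred1*, with 1017 against 761 to 789 (0.893).

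The effects of fenoterol over untreated at 1 h and at 4 h differed in 5775 genes, which are the genes of the comparison itself.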

How the results depend on the processing

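Over 10 alternatives of scaling, filter, test or threshold, 4341 to 6344 genes were called between 4 h and 1 h, and 4894 to 5802 with 1 library left out, against 5775. No gene called both here and in an alternative had the opposite direction there. Without the mouse as a block, 4773 genes were called, with 240 rises that went on and 245 falls that went on. Scaling by library size only gave 1338 falls that recovered, 726 and 137 genes higher and lower at 4 h but called against untreated at neither time, and a median kept share of 55% against 49.4%, and 45.3% of the 2-fold changes were then higher against 35.7%. Among genes with a mean count of at least 50, 145 were higher at least 2-fold. At an adjusted p under 0.01, 225 rises went on, 375 falls recovered and 246 falls went on. With 1 library left out, falls that recovered numbered 465 (without the 1 h library of mouse 2) to 731, and genes lower at 4 h but called against untreated at neither time 226 to 497, with 471 and 497 without the untreated library of mouse 3 or 4. Of 150 genes named or read with the lists, 140 had the same call and direction under each alternative. The exceptions were *Ccl5*, *Dgat1*, *Dgat2*, *Ciita*, *Col1a1*, *Kit* and *mt-Nd6*, described above, *Adcy7* and *Arrb2*, which were called with scaling by library size only, and *Cd79b*, which was called there and without the 1 h library of mouse 3. With 4 mice and no untreated group for each time, the depth and the design do not separate time with fenoterol from time in culture.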
